A study of Mus musculus with 12 samples.

Results

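The 6 arrays described here held RNA of wild-type epidermal keratinocytes, 3 of the basal layer and 3 of the suprabasal layers, out of 12 arrays in the series. They were taken by the wild-type genotype and by titles that call basal samples wt_high and suprabasal samples wt_low. All came from skin of the FVB/N mouse strain on postnatal day 4, after isolation of primary keratinocytes and fluorescence-activated sorting. The labels do not say which marker the words high and low refer to. The other 6 arrays, 3 basal and 3 suprabasal, came from bitransgenic mice of the same strain and age, whose transgenes the labels do not describe, and they entered the fit for its spread and for 1 comparison of the layer difference between genotypes. Each title also carries a code, and the codes X667_06, X682_11 and X721_08 each occur on 1 wild-type basal and 1 wild-type suprabasal array. The labels do not say that a code is an animal, and the p-values therefore describe no more than the spread among these arrays, which may be technical.

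Keratinocytes of the basal layer sit on the basement membrane, hold on to it through integrins and laminins, and are the dividing cells of the epidermis. A cell that leaves this layer stops dividing, changes its keratins and desmosomes, and then makes cornified envelope proteins and barrier lipids. The epidermis of young mice also holds hair follicles, sebaceous glands, pigment cells, Merkel cells and immune cells, any of which a sort of skin cells can carry along.

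The signal of a gene is given on the log2 scale for 1 transcript cluster, the unit in which the array groups its probes, and a difference is always basal minus suprabasal. Values of single arrays are listed in the order of the codes X667_06, X682_11 and X721_08. A cluster is called above background in a layer where it passed the 95th percentile of the intronic control probe sets on 1 or more of the 3 arrays of that layer, a mark that lay between 8.21 and 8.71. Of 65956 clusters, 8222 were above background in 1 layer or both: 6752 in both, 922 only in basal arrays and 548 only in suprabasal arrays. Where a layer was not above background the fold is given as a bound, the mean of the bright layer against the mark or the gene's own signal in the dim layer, whichever was higher on each array, if that bound was above 1. A difference printed for such a gene is between signals as measured, 1 of them not above background, and is not the size of a change.

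The layer labels were set against markers first. Keratin genes of the basal layer were among the brightest signals in both layers. Krt14, a basal keratin, had signals of 13.40, 13.38 and 13.49 in basal arrays, against 13.29, 13.13 and 13.05 in suprabasal arrays. Krt5, its partner, had 13.54, 13.50 and 13.52 in basal arrays, against 13.38, 13.14 and 13.02 in suprabasal arrays. Basal values of both genes lay above all suprabasal values, by differences of 0.27 ± 0.14 for Krt14 and 0.34 ± 0.21 for Krt5 (SE), which did not pass the test (limma's adjusted p = 0.239 and 0.292 over the clusters above background). The highest signal of any cluster on a wild-type array was 13.68 to 13.89, so both keratins were near the top of the scale. The spinous keratins were as bright in both layers. Krt10 had 13.30, 12.60 and 13.37 in basal arrays, against 13.41, 12.87 and 13.50 in suprabasal arrays, and Krt1 had 13.05, 12.28 and 13.09 in basal arrays, against 12.92, 12.25 and 13.44 in suprabasal arrays. The layers overlapped for both genes, with differences of -0.17 ± 0.07 for Krt10 and -0.06 ± 0.11 for Krt1 (SE), and limma's adjusted p was 0.182 and 0.689. The sign for Krt1 turned when arrays were centred or code X721_08 was left out. Krt14 and Krt5 thus stood apart between the labelled layers by small differences and Krt10 and Krt1 overlapped, and the labels are used below as given.

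Integrin genes and late markers differed more, though none of these passed the test. Itga6, the alpha chain of the hemidesmosomal integrin, had 10.03, 10.33 and 10.11 in basal arrays, against 9.75, 9.38 and 8.74 in suprabasal arrays. Itgb4, its beta chain, had 10.09, 10.15 and 10.23 in basal arrays, against 9.66, 9.23 and 8.80 in suprabasal arrays. Both were higher in basal arrays in 3 of 3 codes with no overlap, by 0.87 ± 0.31 and 0.93 ± 0.34 (SE; limma's adjusted p = 0.132 and 0.138 over the clusters above background). Trp63, the transcription factor of stratified epithelia, had 9.52, 9.79 and 9.49 in basal arrays, against 9.36, 9.21 and 8.94 in suprabasal arrays, a difference of 0.43 ± 0.19. Lor, a main protein of the cornified envelope, had 7.74, 7.97 and 7.96 in basal arrays, against 8.35, 8.20 and 8.81 in suprabasal arrays, and was above background only in suprabasal arrays. Flg, the filaggrin gene, had 9.08, 10.35 and 8.76 in basal arrays, against 10.04, 9.79 and 10.83 in suprabasal arrays. Its layers overlapped, because the basal array of code X682_11 was above 2 of the 3 suprabasal arrays.

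**Figure D1:**
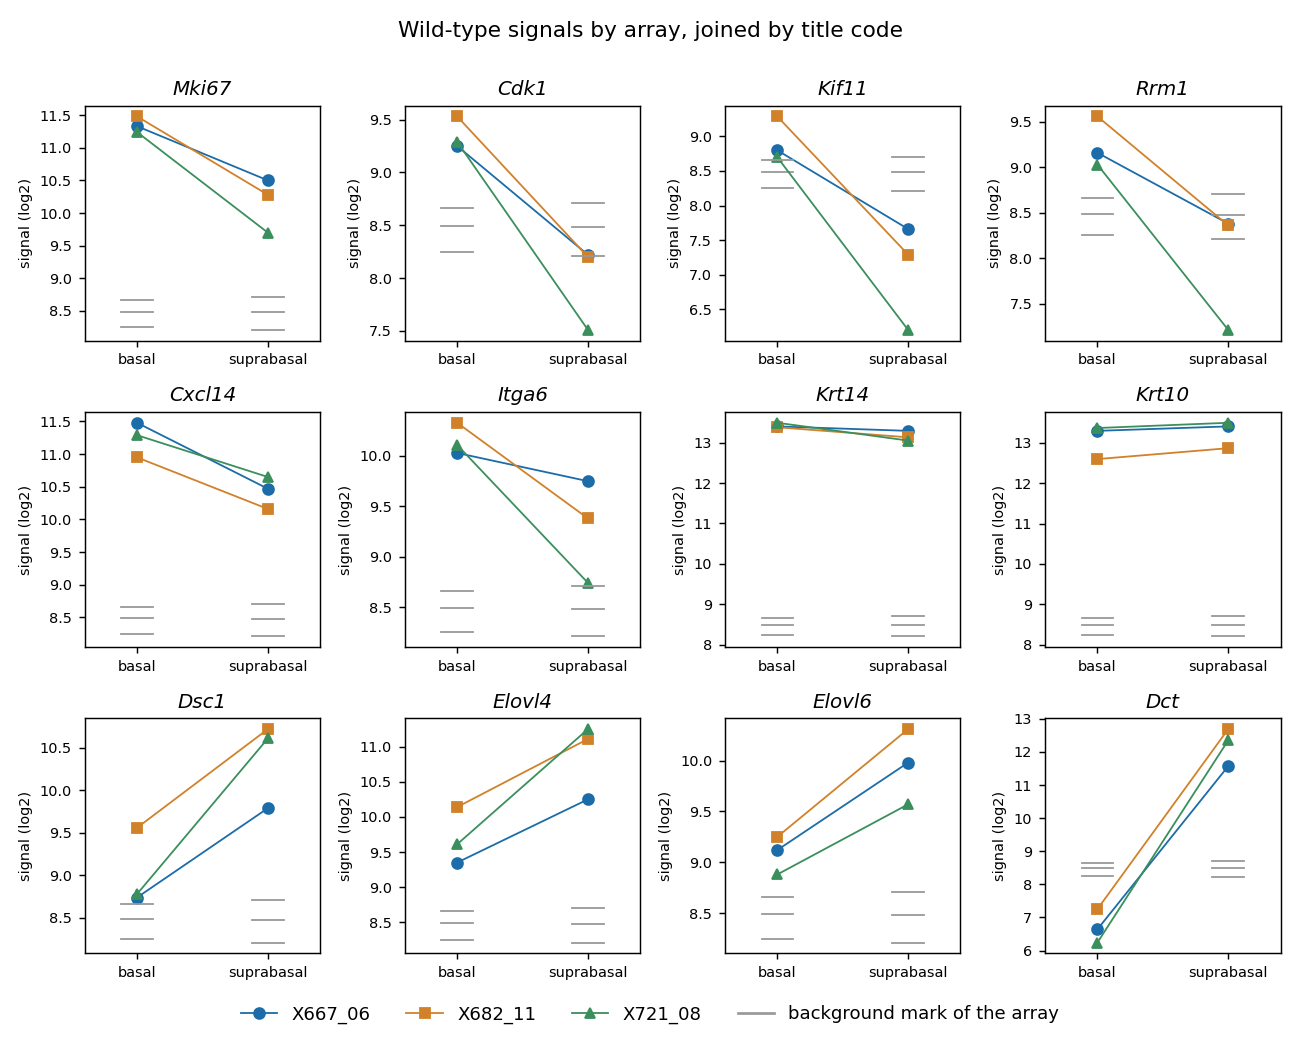
Log2 signal of 12 genes on the 6 wild-type arrays, basal left and suprabasal right, with a line joining the 2 arrays of each code and grey marks for the background of each array; axes differ between panels. Mki67, Cdk1, Kif11 and Rrm1 slope down and Dsc1, Elovl4, Elovl6 and Dct slope up towards suprabasal arrays in all 3 codes, while Krt14 and Krt10 stay between 12.60 and 13.50.

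Across all 65956 clusters, 0 passed an adjusted p of 0.05 in the limma fit with the code as a block, where the lowest adjusted p was 0.0651 and 14906 clusters had an unadjusted p under 0.05. When only the 8222 clusters above background were tested, 543 were called by limma at an adjusted p under 0.05. Of these, 259 were higher (3.15% of the clusters above background) and 284 lower (3.45%) in basal arrays, and "called" refers to this test from here on. A gene above background in neither layer was not in this test and could not be called. Limma's adjusted p over all clusters was between 0.0651 and 0.0882 for the 543. With each array centred on its median the split was 1067 higher and 375 lower, with cyclic loess 1 cluster was called, and without any 1 of the 3 codes 0 were called (lowest limma adjusted p 0.0688 to 0.241). Of the 259, 137 were above background only in basal arrays, and 114 of the 284 only in suprabasal arrays, so these entered the test through the layer in which they passed the mark, and their direction was largely set by that. Among the 4482 clusters above background on all 6 arrays, 39 were called higher and 121 lower. Of the called clusters, 463 had no overlap between the layers, which 27.5% of all clusters also showed.

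**Figure D2:**
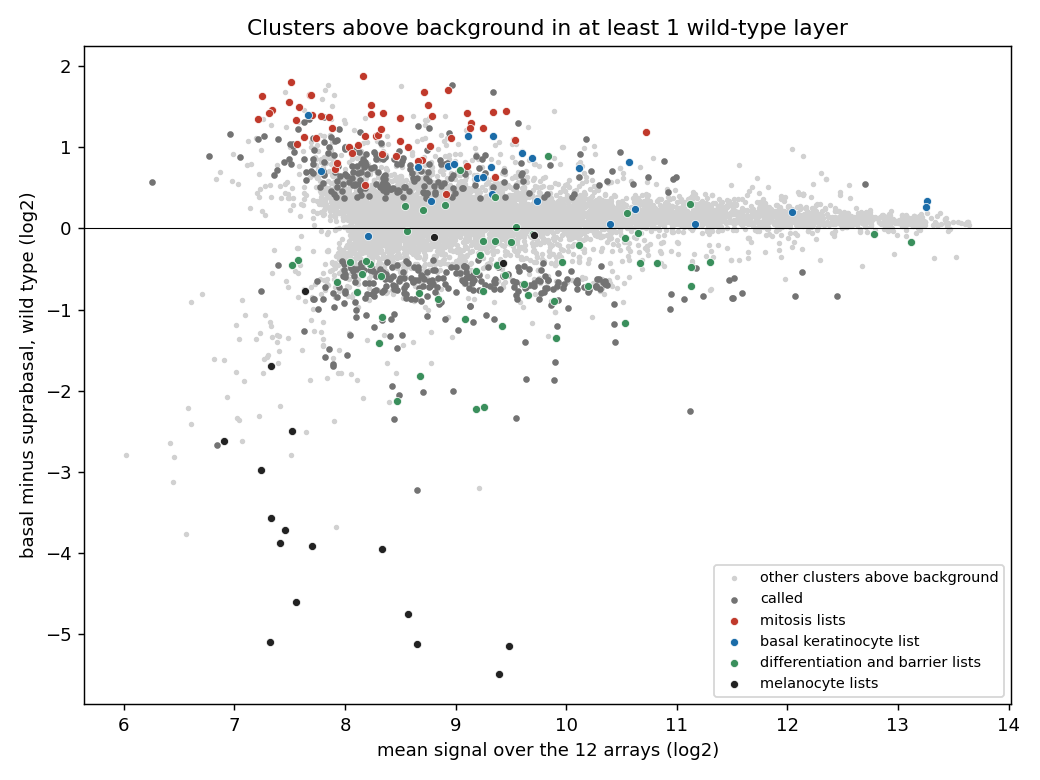
Difference between the wild-type layers (basal minus suprabasal, log2) against the mean log2 signal over the 12 arrays, for the clusters above background in 1 wild-type layer or both; dark grey points were called and coloured points are members of gene lists. Mitosis genes lie above 0 and most differentiation and barrier genes below it, and the melanocyte lists reach a difference of -5.49.

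Genes of cell division had the highest median differences of the gene lists. Cyclin-dependent kinases with their cyclins start mitosis, spindle and kinetochore proteins carry the chromosomes apart, and the anaphase-promoting complex ends the phase. Of 26 measured mitotic regulators, 14 were called higher and 0 lower, but 9 of the 14 were above background only in basal arrays. Of the 9 regulators above background in both layers, 5 were called higher and 0 lower, and 6 of the 26 were above background in neither. The median difference over all 26 was 1.10 beside -0.05 over all clusters and 0.13 over those above background. All 26 were higher at an unadjusted p under 0.05, beside 8.16% of all clusters. Of 47 genes of the spindle, kinetochore, chromosome condensation and cytokinesis, 33 were called higher and 0 lower, with a median of 1.24 over all 47 and an unadjusted p under 0.05 for all 47. Of these 33, 26 were above background only in basal arrays, while 7 of the 8 above background in both layers were called higher and 12 of the 47 were above background in neither. The absence of lower calls among members above background only in basal arrays was largely set by that filter. Sorted cells were measured in bulk, so fewer cells of a type and less RNA per cell cannot be told apart here or below.

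Mki67, the chromosome-coating protein used as a marker of cycling cells (chromosome 7, 135689788 to 135716379, mm10), had signals of 11.33, 11.48 and 11.24 in basal arrays, against 10.50, 10.28 and 9.70 in suprabasal arrays. All basal values lay above all suprabasal ones, and the suprabasal array of code X721_08 was lowest. Mki67 was 1.19 ± 0.15 higher (SE; limma's adjusted p = 0.0403 over the clusters above background and 0.0668 over all clusters), and averaged 11.35 ± 0.12 over basal arrays and 10.16 ± 0.41 over suprabasal arrays (SD, n = 3 each). Even the suprabasal arrays were above the background mark for Mki67. Bub3, a protein of the spindle checkpoint, had 9.72, 10.21 and 9.65 in basal arrays, against 9.07, 9.33 and 8.76 in suprabasal arrays, with no overlap and a difference of 0.81 ± 0.10 (limma's adjusted p = 0.0403). H2ax, a histone variant that also marks broken DNA, had 10.71, 10.93 and 10.59 in basal arrays, against 9.93, 9.80 and 9.18 in suprabasal arrays, a difference of 1.11 ± 0.19 (limma's adjusted p = 0.0437). Like Mki67, both were above background on all 6 arrays.

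Among the regulators, Cdk1, the kinase that starts mitosis (chromosome 10, 69336635 to 69352938), had 9.25, 9.53 and 9.29 in basal arrays, against 8.22, 8.20 and 7.51 in suprabasal arrays. No suprabasal array passed its mark, so the fold was at least 1.85, with a measured difference of 1.38 ± 0.17 (limma's adjusted p = 0.0403). Ccnb1, cyclin B1, the partner of Cdk1, had 9.30, 9.63 and 9.40 in basal arrays, against 8.34, 8.18 and 7.26 in suprabasal arrays, and was at least 1.97-fold higher. Plk1, a kinase of mitotic entry and the spindle, was above background in both layers, with 10.02, 10.34 and 9.92 in basal arrays, against 9.02, 8.85 and 8.08 in suprabasal arrays. The difference of Plk1 was 1.44 ± 0.22 (limma's adjusted p = 0.0403). Cdc25b, a phosphatase that activates Cdk1, had 8.34, 8.36 and 8.21 in basal arrays, against 7.66, 7.60 and 7.45 in suprabasal arrays, and passed the mark on 1 basal array only, with no bound above 1. Ttk, the checkpoint kinase also called Mps1, and Fbxo5, an inhibitor of the anaphase-promoting complex, were called as well, but each passed the mark on 1 basal array and no suprabasal array, so their size of change was not measured. Mad2l1, a checkpoint protein, had 9.96, 10.22 and 9.78 in basal arrays, against 9.44, 9.16 and 8.09 in suprabasal arrays. Its spread between codes was wider and it did not pass the test (1.09 ± 0.25, limma's adjusted p = 0.0608).

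The spindle and cytokinesis genes named here were mostly above background only in basal arrays. Kif11, the motor that pushes spindle poles apart (chromosome 19, 37376403 to 37421859), had 8.80, 9.29 and 8.70 in basal arrays, against 7.66, 7.29 and 6.20 in suprabasal arrays, at least 1.38-fold higher. Anln, an actin-binding protein of the cleavage furrow, had 9.35, 9.74 and 9.37 in basal arrays, against 8.26, 8.07 and 7.10 in suprabasal arrays, at least 2.03-fold higher. Tpx2, which activates Aurora A on the spindle, was at least 1.58-fold higher, Fam83d, a spindle protein, at least 1.50-fold and Ncapd2, a condensin subunit, at least 1.46-fold (limma's adjusted p between 0.0403 and 0.0441 for these genes). For all of them the highest suprabasal value was lower than the basal value of the same code. Prr11 (1.50 ± 0.16), Sgo1, the shugoshin that guards centromeric cohesion (1.42 ± 0.16), Ckap2l, a spindle protein (1.04 ± 0.12), and Ncapg, a condensin subunit (1.35 ± 0.16), were called as well, with basal signals too near the mark for a bound above 1. Kif23, a motor of the central spindle, had 9.78, 10.35 and 9.61 in basal arrays, against 8.92, 8.89 and 7.63 in suprabasal arrays, and missed the threshold (1.43 ± 0.29, limma's adjusted p = 0.0501).

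The DNA before the transcription starts was searched for members of these lists. The 4 genes printed below were picked by hand, not by a rule, and need not stand for the lists. Below are stretches that end at the base before the RefSeq start, read 5′ to 3′ along the gene's strand (RefSeq, GRCm38.p6), for 4 called mitotic genes. Capitals mark CCAAT or its complement ATTGG, the box bound by NF-Y, and TTTGAA or its complement TTCAAA, the core of the cell cycle homology element.
Cdk1 (chr10:69352913-69353022, minus strand): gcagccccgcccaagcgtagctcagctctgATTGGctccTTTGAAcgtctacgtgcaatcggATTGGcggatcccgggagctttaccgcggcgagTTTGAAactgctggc
Kif11 (chr19:37376272-37376381, plus strand): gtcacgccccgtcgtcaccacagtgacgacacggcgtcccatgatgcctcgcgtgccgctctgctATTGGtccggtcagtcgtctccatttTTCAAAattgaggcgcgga
Ube2c (chr2:164769819-164769928, plus strand): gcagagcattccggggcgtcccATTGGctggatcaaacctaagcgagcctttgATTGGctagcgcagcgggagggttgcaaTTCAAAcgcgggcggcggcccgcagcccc
Ccnb2 (chr9:70421555-70421664, minus strand): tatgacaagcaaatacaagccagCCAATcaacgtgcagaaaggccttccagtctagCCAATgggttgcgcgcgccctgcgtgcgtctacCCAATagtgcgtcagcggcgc
Cdk1 holds 2 boxes and 2 elements in this stretch, Kif11 1 of each, Ube2c, which loads ubiquitin for the anaphase-promoting complex, 2 boxes and 1 element, and Ccnb2, cyclin B2, 3 boxes and no TTTGAA. Both strands were searched in the 250 bases before each start, and neither motif contains the other. CCAAT was in 81% of the 21 windows matched to mitotic regulators, 66.7% of the 42 of spindle genes and 33.8% of all 32851 windows. It was not particular to these lists, being in 68.2% of the windows of sterol and fatty acid synthesis genes, 57.1% of those of replication genes and 53.8% of those of melanin genes. TTTGAA was in 28.6% of the windows of mitotic regulators, 40.5% of those of spindle genes, 11.9% of those of replication genes and in 16% of all windows. Windows were found for 21 of the 26 and 39 of the 47 genes, and a match describes the letters only.

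Genes of DNA replication had smaller differences. Of 46 measured, 9 were called higher and 0 lower, and 7 of the 9 were above background only in basal arrays. A further 16 of the 46 were above background in neither layer. Of all clusters above background, 3.15% were called higher. Over all 46 the median was 0.71. An unadjusted p under 0.05 was found for 43 in the higher direction, beside 8.16% of all clusters. Rrm1, the large subunit of ribonucleotide reductase, which makes deoxynucleotides, had 9.16, 9.56 and 9.03 in basal arrays, against 8.38, 8.36 and 7.21 in suprabasal arrays. Its difference was 1.27 ± 0.21 (limma's adjusted p = 0.0433), with the suprabasal array of code X721_08 again lowest. E2f8, a repressor of the E2F family, was at least 1.42-fold higher, Pole, the catalytic subunit of polymerase epsilon, at least 1.07-fold, and Prim2, a primase subunit, differed by 0.90 ± 0.13 as measured. The bright members Pcna, the sliding clamp, and Mcm5, of the replicative helicase, did not pass. Pcna had 11.29, 11.47 and 11.23 in basal arrays, against 11.07, 11.12 and 10.46 in suprabasal arrays (0.45 ± 0.12, limma's adjusted p = 0.0832). Mcm5 had 9.81, 10.32 and 9.82 in basal arrays, against 9.55, 9.65 and 8.38 in suprabasal arrays (0.79 ± 0.25, limma's adjusted p = 0.108). In both, 2 codes differed by less and code X721_08 by more.

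**Figure D3:**
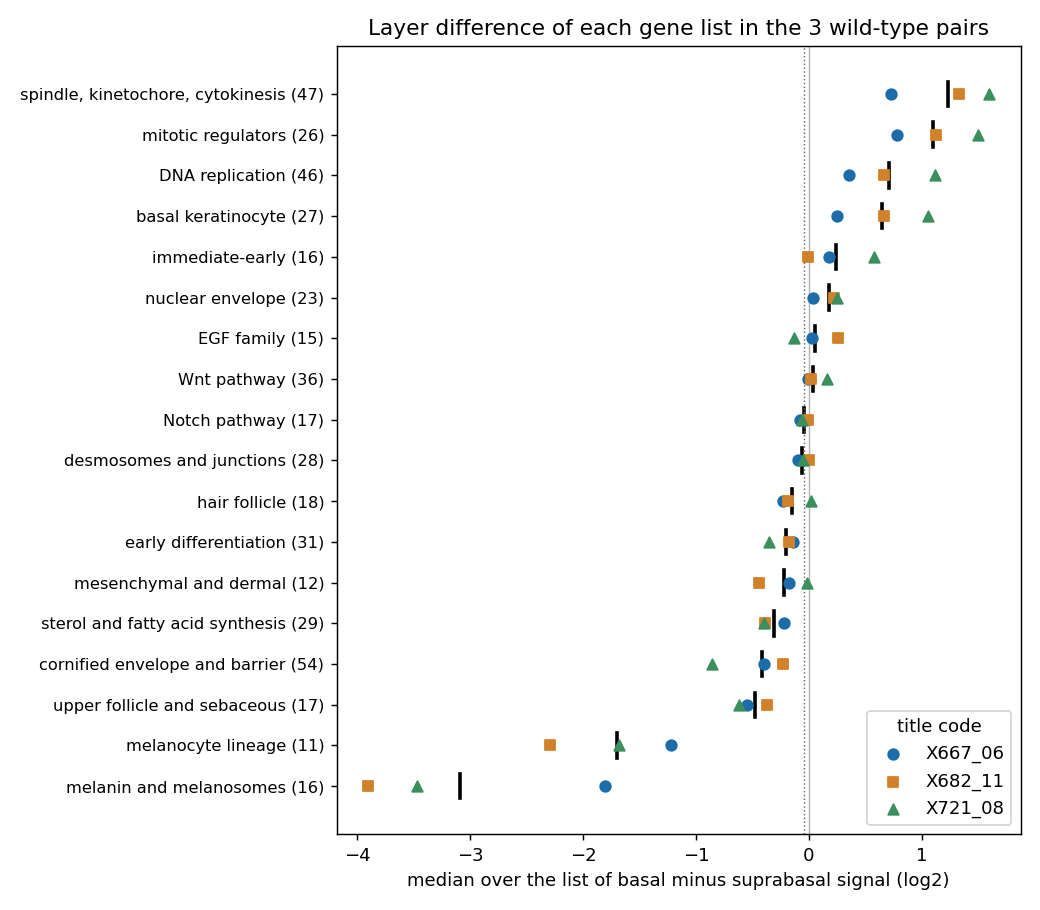
Median over each gene list of the basal minus suprabasal log2 signal in each of the 3 wild-type codes, with a black bar at the median of the fitted differences, the number of genes measured in brackets and a dotted line at the median of all clusters. The 3 lists of cell division and replication and the basal keratinocyte list lie above 0 in all 3 codes, and the 2 melanocyte lists lie below -1 in all 3.

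The size of the difference varied by code in the same order for these lists. The median over mitotic regulators was 0.785, 1.13 and 1.495 in codes X667_06, X682_11 and X721_08, and over replication genes 0.355, 0.67 and 1.12. The median over the basal keratinocyte genes was 0.25, 0.67 and 1.06. Code X667_06 thus had the smallest and code X721_08 the largest layer difference in each of these lists. Among the wild-type arrays, the suprabasal array of code X721_08 also had the highest background mark (8.71) and the smallest share of clusters above it (7.46%). Whether this bears on the order of the codes was not tested.

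Of 27 measured genes of basal keratinocytes, which hold keratins, integrins, other adhesion genes and secreted factors, 2 were called higher and 0 lower, and neither was an adhesion gene. The median difference over all 27 was 0.65, and 17 had an unadjusted p under 0.05 in the higher direction and 0 in the lower. Cxcl14, a chemokine of epithelia (chromosome 13, 56288643 to 56296551), had 11.48, 10.95 and 11.29 in basal arrays, against 10.47, 10.16 and 10.65 in suprabasal arrays. All basal values lay above the suprabasal ones, by 0.81 ± 0.09 (limma's adjusted p = 0.0403 over the clusters above background and 0.0651 over all clusters). Wnt10a, a secreted Wnt ligand needed for skin appendages, had 8.34, 8.29 and 8.20 in basal arrays, against 7.58, 7.57 and 7.55 in suprabasal arrays, where it was not above background (0.71 ± 0.13, limma's adjusted p = 0.0441). Integrins and other adhesion genes were not called. Chosen after their values were seen, Itga3, an integrin chain that binds laminin, differed by 1.14, and Col17a1, the hemidesmosomal collagen, by 0.75. Cd44, the hyaluronan receptor, and Sdc1, a syndecan, differed by 0.05 and 0.06, signs that turned with cyclic loess.

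Further named genes were called higher and bright on all 6 arrays. P3h2, which hydroxylates prolines of collagens of the basement membrane, had 9.96, 9.55 and 9.98 in basal arrays, against 9.30, 8.67 and 8.83 in suprabasal arrays (0.90 ± 0.16, limma's adjusted p = 0.044). Il6st, the gp130 receptor chain of the interleukin 6 family, had 10.50, 10.41 and 10.68 in basal arrays, against 10.10, 9.75 and 9.83 in suprabasal arrays (0.64 ± 0.11, limma's adjusted p = 0.0441). Tnfrsf12a, the receptor of the cytokine TWEAK, had 10.41, 10.69 and 10.66 in basal arrays, against 10.07, 10.06 and 9.87 in suprabasal arrays (0.59 ± 0.10, limma's adjusted p = 0.0441). The layers did not overlap for any of these receptors or for P3h2. Slc6a6, the taurine transporter, differed by 0.68 ± 0.13, Arl6ip1, a protein of the endoplasmic reticulum, by 0.71 ± 0.11, and the pseudogene Dynlt1-ps1, whose probes may share sequence with its parent gene, by 0.57 ± 0.09. Above background only in basal arrays were Cpne2, a calcium-dependent membrane-binding copine (at least 1.39-fold), and Popdc3, of the Popeye family (at least 1.36-fold).

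Some differentiation genes were lower in basal arrays. Of 31 early differentiation genes measured, 5 were called lower and 0 higher, with a median of -0.20 over all 31. An unadjusted p under 0.05 was found for 16 in the lower direction, beside 14.4% of all clusters, and for 0 in the higher. Dsc1, desmocollin 1, a desmosomal cadherin of differentiated layers, had 8.74, 9.56 and 8.78 in basal arrays, against 9.79, 10.72 and 10.61 in suprabasal arrays. Its difference was -1.35 ± 0.18 (limma's adjusted p = 0.0403), with no overlap. Calml3, a calmodulin-like protein of differentiating keratinocytes, had 7.30, 8.29 and 7.39 in basal arrays, against 9.02, 9.60 and 9.80 in suprabasal arrays (-1.81 ± 0.31, limma's adjusted p = 0.044). In basal arrays it passed the mark only in code X682_11. Sbsn, suprabasin, had 10.51, 10.80 and 10.55 in basal arrays, against 11.07, 11.27 and 11.64 in suprabasal arrays (-0.71 ± 0.13, limma's adjusted p = 0.0452). Fabp5, the epidermal fatty acid-binding protein, had 8.27, 8.97 and 8.43 in basal arrays, against 8.94, 9.56 and 9.47 in suprabasal arrays. The layers of Fabp5 overlapped across codes but not within one (-0.77 ± 0.10, limma's adjusted p = 0.0403). Its copy Fabp5l2 differed by -0.98 ± 0.13, and the 2 genes may share probes, so neither value is certain to be its own. The fifth called member, Zfp750, a zinc finger regulator of terminal differentiation, differed by -0.57.

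Some barrier genes were lower in basal arrays too. Of 54 genes of the cornified envelope, its enzymes and barrier lipids, 7 were called lower and 0 higher, and the median over all 54 was -0.42. Of the 7, 4 were above background only in suprabasal arrays. An unadjusted p under 0.05 was found for 32 in the lower and 2 in the higher direction, although 24 of the 54 passed the background mark in neither layer. Elovl4, which makes the very long fatty acids of barrier ceramides (chromosome 9, 83778692 to 83806305), had 9.35, 10.14 and 9.61 in basal arrays, against 10.25, 11.11 and 11.25 in suprabasal arrays. Its layers did not overlap, with a difference of -1.17 ± 0.15 (limma's adjusted p = 0.0403). Acer1, the alkaline ceramidase of epidermis, had 8.73, 7.98 and 9 in basal arrays, against 9.45, 9.04 and 10.55 in suprabasal arrays (-1.11 ± 0.15, limma's adjusted p = 0.0403). Cst6, a cystatin that restrains barrier proteases, had 7.04, 7.66 and 7.08 in basal arrays, against 8.73, 9.76 and 9.67 in suprabasal arrays, at least 1.89-fold lower in basal arrays. Sprr1a, a small proline-rich precursor of the cornified envelope, had 7.26, 7.59 and 7.95 in basal arrays, against 8.62, 9.11 and 9.32 in suprabasal arrays. Basal signal was at least 1.46-fold lower, with the smallest adjusted p of any cluster above background (-1.42 ± 0.09, limma's adjusted p = 0.0284).

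The stretch before the start of Sprr1a is shown because AP-1, the dimer of Jun and Fos proteins, is known to act on genes of this family. Capitals mark TGANTCA, the AP-1 site, which reads the same on both strands.
Sprr1a (chr3:92485882-92486041, minus strand): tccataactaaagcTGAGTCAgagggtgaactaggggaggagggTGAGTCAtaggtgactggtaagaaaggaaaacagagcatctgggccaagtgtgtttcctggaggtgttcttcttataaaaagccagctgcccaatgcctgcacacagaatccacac
The stretch holds the motif in 2 places, starting 146 and 116 bases before the start. TGANTCA was in 39.1% of the 23 windows of early differentiation genes, 21.2% of the 52 of barrier genes and 6.75% of all windows. Windows were found for 18 of the 31 and 47 of the 54 genes.

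Late envelope genes were uneven. Casp14, the caspase of cornification, had 9.39, 9.45 and 9.53 in basal arrays, against 9.95, 10.11 and 11 in suprabasal arrays, with no overlap and a difference of -0.90 ± 0.21 that missed the test (limma's adjusted p = 0.0631). Asprv1, a filaggrin-processing protease, overlapped between the layers, with 10.75, 10.25 and 10.83 in basal arrays, against 11.17, 10.20 and 11.72 in suprabasal arrays. The barrier genes with a higher basal signal were few. Tgm3, a transglutaminase, and Klk10, a kallikrein, were the 2 with an unadjusted p under 0.05 in that direction, with differences of 0.89 and 0.72, and neither was called. Ivl, involucrin, named after its values were seen, differed by -2.20 without a call, since its spread between codes was wide (unadjusted p = 0.0108 in limma).

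Some lipid synthesis genes were lower in basal arrays. Of 29 measured genes of sterol and fatty acid synthesis, 5 were called lower in basal arrays and 0 higher, with a median of -0.31 over all 29. Of the 29, 9 were above background in neither layer. At an unadjusted p under 0.05 in limma, 19 were lower and 0 higher, beside 14.4% and 8.16% of all clusters. Elovl6, an elongase of long fatty acids, had 9.12, 9.25 and 8.88 in basal arrays, against 9.98, 10.31 and 9.57 in suprabasal arrays (-0.87 ± 0.10, limma's adjusted p = 0.0403). The layers did not overlap for Elovl6. Fdps, the farnesyl diphosphate synthase, differed by -0.51 ± 0.09 and Sqle, the squalene epoxidase, by -0.48 ± 0.09, while Scd1, a desaturase abundant in sebaceous glands, differed by -1.20, and all of these were called. Fasn, the fatty acid synthase, was -0.24 ± 0.07 without a call. Hmgcs1, the first enzyme committed to sterols, was at 9.60 in both layers, so not every member was lower.

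Other bright genes called lower were Ly6g6c, of the Ly6 family of surface proteins, and Ndrg2. Ly6g6c had 8.74, 9.05 and 8.84 in basal arrays, against 10.08, 10.89 and 11.25 in suprabasal arrays (-1.86 ± 0.26, limma's adjusted p = 0.0403). Ndrg2 had 8.77, 9.25 and 8.71 in basal arrays, against 10.15, 10.72 and 10.79 in suprabasal arrays (-1.64 ± 0.19, limma's adjusted p = 0.0403). Neither gene overlapped between the layers. Sdr16c5, a retinol dehydrogenase, differed by -0.78 ± 0.14. Pla2g2f, a secreted phospholipase of the suprabasal epidermis, was above background only in suprabasal arrays and at least 1.91-fold lower in basal arrays.

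Of the 17 genes of the upper follicle and sebaceous gland 4 were called lower and 0 higher, 3 of the 4 above background only in suprabasal arrays. The median was -0.48, with 14 lower and 3 higher in basal arrays whether called or not. Krt79, a keratin of the follicle's upper canal (chromosome 15, 101929332 to 101940324), had 9.81, 10.48 and 9.51 in basal arrays, against 11.72, 12.44 and 12.38 in suprabasal arrays. It fell by 2.25 ± 0.41 in basal arrays (limma's adjusted p = 0.0441), the largest difference among called clusters with 1 gene name that were above background on all 6 arrays. Alox12e, an epidermal lipoxygenase, had 7.28, 7.12 and 7.18 in basal arrays, against 8.67, 8.72 and 9.28 in suprabasal arrays, at least 1.34-fold lower in basal arrays. Cidea, a lipid-droplet protein of sebocytes, differed by -0.87 ± 0.12 and Defb6, a defensin, by -2.66 ± 0.49, both too near the mark for a bound. Krt17, a follicle keratin, had 11.98, 12.80 and 12.11 in basal arrays, against 12.53, 13.03 and 12.73 in suprabasal arrays, and was not called (-0.47 ± 0.10, limma's adjusted p = 0.0551). Plet1, of the follicle junctional zone, and Lrig1, a stem cell marker of the upper follicle, differed by 0.20 ± 0.16 and 0.06 ± 0.15, the sign of Lrig1 turning with cyclic loess. Of 18 genes of follicle stem cells and hedgehog signalling, 0 were called, 5 were above background, and 2 were higher and 6 lower at an unadjusted p under 0.05 in limma.

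Pigment cell genes had the lowest median difference of the gene lists. Melanocytes make melanin in melanosomes and are neural crest cells, not keratinocytes. FVB/N is an albino strain. The mean log2 signal over 16 genes of melanin and melanosomes was 6.22, 6.42 and 6.16 in basal arrays, against 8.37, 9.60 and 9.22 in suprabasal arrays. Of the 16, 5 were called lower in basal arrays, and 13 had an unadjusted p under 0.05 in that direction, with a median of -3.09. All 5 were above background only in suprabasal arrays, as were 10 of the 16, so the direction of the calls was largely set by that filter. Code X667_06 had the smallest gap, with a median of -1.81, against -3.91 in X682_11 and -3.47 in X721_08.

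Dct, the dopachrome tautomerase (chromosome 14, 118012790 to 118052246), had 6.64, 7.25 and 6.24 in basal arrays, against 11.57, 12.69 and 12.35 in suprabasal arrays. No basal array passed its mark, and basal signal was at least 13.3-fold lower (limma's adjusted p = 0.0431). Pmel, the fibril protein of melanosomes, had 6.80, 7.48 and 6.60 in basal arrays, against 11.38, 12.74 and 12.21 in suprabasal arrays, at least 12.5-fold lower in basal arrays. Tyrp1 had 5.56, 7.05 and 5.60 in basal arrays, against 10.06, 12.35 and 11.17 in suprabasal arrays, and Tyr, the tyrosinase that starts melanin synthesis, had 4.55, 5.42 and 4.66 in basal arrays, against 9.16, 10.48 and 10.27 in suprabasal arrays. Their bounds were 6.62-fold and 2.84-fold, and that of Mlana, a melanosome protein, was 5.49-fold. In each of these genes the basal array of code X682_11 was the highest of the basal arrays and the suprabasal array of the same code the highest of its layer. Rab38, which carries cargo to melanosomes and also occurs in keratinocytes, did not follow them, with 8.53, 8.91 and 8.53 in basal arrays, against 8.60, 8.92 and 8.78 in suprabasal arrays.

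The stretches before the starts of 3 called melanin genes are shown for the TCATGTG of the M-box bound by Mitf, which is in capitals here (the complement is CACATGA). They were chosen for holding it.
Dct (chr14:118052247-118052406, minus strand): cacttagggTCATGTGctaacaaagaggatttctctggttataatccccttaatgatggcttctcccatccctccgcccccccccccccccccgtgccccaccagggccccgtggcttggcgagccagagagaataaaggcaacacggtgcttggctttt
Tyr (chr7:87493513-87493642, minus strand): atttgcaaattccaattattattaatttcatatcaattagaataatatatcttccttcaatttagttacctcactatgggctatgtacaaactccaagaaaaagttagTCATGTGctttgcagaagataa
Tyrp1 (chr4:80834083-80834212, plus strand): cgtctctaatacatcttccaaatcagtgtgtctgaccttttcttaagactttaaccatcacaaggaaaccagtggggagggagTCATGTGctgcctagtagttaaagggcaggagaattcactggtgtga
The motif starts 151 bases before the start of Dct, 22 before that of Tyr and 47 before that of Tyrp1. It was in 46.2% of the 13 windows matched to the melanin list, or in 6 of the 11 genes with a window, and in 3.25% of all windows. Pmel and Mlana had no window.

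Among regulators and receptors of the melanocyte lineage, 2 of 11 measured were called lower and 0 higher, both above background only in suprabasal arrays, with a median of -1.70 over all 11. Mitf, the master regulator of melanocytes, had 6.45, 6.27 and 6.36 in basal arrays, against 8.36, 9.44 and 8.76 in suprabasal arrays, at least 1.31-fold lower in basal arrays (limma's adjusted p = 0.0485). Mcoln3, a cation channel gene active in melanocytes, had 5.54, 5.48 and 5.14 in basal arrays, against 8.97, 10.88 and 10.12 in suprabasal arrays, at least 2.88-fold lower. Kit and Ednrb, receptors of melanocytes named after their values were seen, differed by -3.91 and -3.72 and were not called. Tfap2a and Erbb3, which keratinocytes also use, differed by -0.09 ± 0.09 and -0.43 ± 0.09 and were not called either; centring the arrays turned the sign of Tfap2a.

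Markers of further cell types were set beside these. Vim, the vimentin of mesenchymal cells and melanocytes (chromosome 2, 13573927 to 13582826), had 7.15, 7.17 and 6.97 in basal arrays, against 9.37, 11.03 and 10.57 in suprabasal arrays. Basal signal was at least 3.62-fold lower (limma's adjusted p = 0.0481). The fibroblast genes Col1a1, Col1a2, Col3a1, Dcn and Lum were above background in neither layer, and Sparc, a matrix protein, had 10.73, 10.21 and 10.76 in basal arrays, against 10.39, 10.11 and 10.06 in suprabasal arrays. None of the 8 Merkel cell, 11 immune, 8 endothelial and mural or 6 red cell and muscle genes measured was above background in either layer. These genes were therefore outside the test and could not be called. At an unadjusted p under 0.05 in limma, 8 of the Merkel cell and 3 of the immune genes were lower in basal arrays. So were 1 of the endothelial and mural and 3 of the red cell and muscle genes, and 0 genes of these lists were higher. Over all clusters, 14.4% were lower and 8.16% higher at this p. The median signal of all clusters was itself lower on basal arrays (5.28 to 5.36) than on suprabasal arrays (5.39 to 5.46). Krt8 and Krt18, Merkel cell keratins, averaged 6.91 and 6.19 in basal arrays, against 7.23 and 6.49 in suprabasal arrays, and Cd207, of Langerhans cells, averaged 5.80 against 6.21. Of 7 Schwann cell and nerve genes only Pmp22 passed the mark, with 7.69, 7.03 and 7.72 in basal arrays, against 8.12, 9.60 and 8.58 in suprabasal arrays. The part of pigment or follicle cells in the differences of the barrier, lipid and differentiation genes was not tested.

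**Figure D4:**
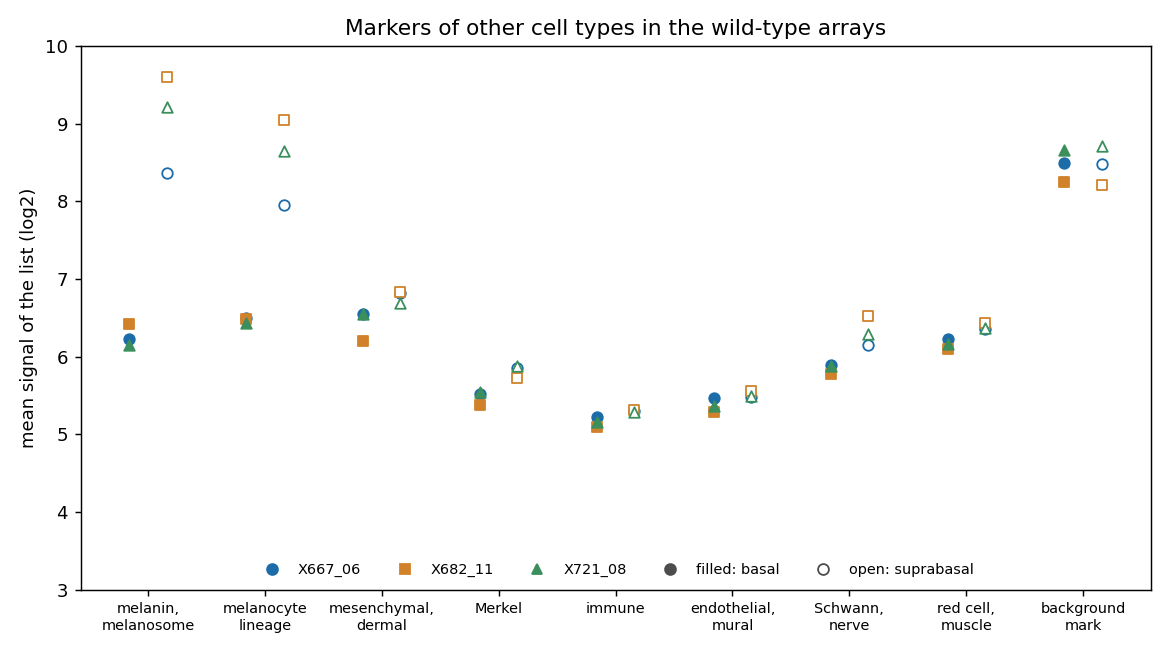
Mean log2 signal of each list of other cell types on the 6 wild-type arrays (filled symbols basal, open symbols suprabasal, one shape for each code), beside the background mark of each array. The melanin list lies between 8.37 and 9.60 on the suprabasal arrays and between 6.16 and 6.42 on the basal arrays, while the Merkel, immune and endothelial lists lie below 6 on all 6.

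Signalling pathways moved in single members. Notch receptors on one cell bind Jagged and Delta ligands on the next and drive the exit from the basal layer. Of 17 Notch genes measured, 0 were called and 10 were above background in neither layer. The median was -0.05 over all 17 and 0.19 over those above background, so its sign depended on the filter. Notch1, a receptor, had 9.97, 9.99 and 10.48 in basal arrays, against 10.07, 9.66 and 10.15 in suprabasal arrays, and overlapped. Jag2, a ligand, had 10.10, 10.08 and 10.22 in basal arrays, against 9.65, 9.08 and 8.54 in suprabasal arrays, and did not overlap. The difference of Jag2 grew by code and did not pass the test (1.04 ± 0.34, limma's adjusted p = 0.111).

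Wnt ligands are secreted with the help of Wls and bind Frizzled receptors, and feedback inhibitors limit them. Of 36 Wnt genes measured, 2 ligands were called higher and 0 lower, both above background only in basal arrays, and the median was 0.04. Above background in neither layer were 20 of the 36. Of all clusters above background, 3.15% were called higher. Wnt10a is given above. Wnt16 had 8.88, 7.17 and 9.17 in basal arrays, against 7.93, 6.42 and 7.56 in suprabasal arrays, where it was not above background. Its layers overlapped across codes but basal was higher within each (1.10 ± 0.22, limma's adjusted p = 0.0483). Wls had 9.91, 9.83 and 10.10 in basal arrays, against 9.64, 9.22 and 8.96 in suprabasal arrays, without overlap or call (0.67 ± 0.17, limma's adjusted p = 0.0725). Apcdd1, an inhibitor, differed by 0.26 ± 0.12. Dkk3, of the Dickkopf family, named after its values were seen, had the lowest difference of the list at -1.37, above background only in suprabasal arrays and not called.

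The nuclear envelope is lined by lamins, which inner membrane proteins anchor, and is pierced by nuclear pores. Of 23 genes measured, 10 were above background in neither layer. In basal arrays 3 were called higher and 0 lower, with a median of 0.18 over all 23. Of all clusters above background, 3.15% were called higher. Of the 3, 1 was above background only in basal arrays, and its direction was largely set by that filter. Tmpo, which binds lamins and chromatin, had 8.93, 9.19 and 8.69 in basal arrays, against 8.49, 8.50 and 8.08 in suprabasal arrays (0.58 ± 0.08, limma's adjusted p = 0.0403). Nup133, a scaffold protein of the pore, had 8.80, 9.23 and 8.69 in basal arrays, against 8.36, 8.63 and 8.15 in suprabasal arrays (0.53 ± 0.07, limma's adjusted p = 0.0403). Neither overlapped between the layers. Zmpste24, the protease that matures lamin A, had 8.28, 8.27 and 8.21 in basal arrays, against 7.70, 7.90 and 7.79 in suprabasal arrays (0.46 ± 0.08, limma's adjusted p = 0.0441). Zmpste24 passed the mark on 1 basal array and no suprabasal array, so its size of change was not measured. Lmna, the gene of lamins A and C, had 10.86, 11.06 and 10.80 in basal arrays, against 10.74, 10.84 and 10.55 in suprabasal arrays, and overlapped (0.20 ± 0.07, limma's adjusted p = 0.141). Nup153, a pore basket protein, differed by 0.38 ± 0.11 and was not called.

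The lists of junction, growth factor and immediate-early genes had 0 calls. Above background in neither layer were 11 of 28 junction, 7 of 15 EGF family and 2 of 16 immediate-early genes. At an unadjusted p under 0.05 in limma, 9 junction genes were lower and 1 higher, beside 14.4% and 8.16% of all clusters. For the EGF family these counts were 3 and 2, and for immediate-early genes 1 and 4. Dsc1, the desmosomal cadherin called lower, was counted with the early differentiation genes instead. Of 28 desmosome and junction genes the median was -0.06, and the bright members Dsp, desmoplakin, and Cdh1, E-cadherin, differed by -0.06 ± 0.09 and -0.06 ± 0.07, signs that turned when arrays were centred. Of 15 genes of the EGF family the median was 0.06, with Erbb2, a receptor, at -0.07 ± 0.09, a sign that centring turned too. Immediate-early genes, which cells switch on within minutes of handling or growth signals, were bright in both layers. Fosb had 12.59, 10.94 and 12.52 in basal arrays, against 12.40, 11.02 and 11.89 in suprabasal arrays. Jun had 12.16, 11.08 and 11.94 in basal arrays, against 11.99, 11.17 and 11.30 in suprabasal arrays. Both arrays of code X682_11 were the lowest of their layer in both genes, so these genes differed more between codes than between layers.

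The layer difference was set against that of the bitransgenic arrays by the interaction term of the same fit. It was called for 0 of 65956 clusters by limma, with a lowest adjusted p of 0.755, and 6.29% of clusters had an unadjusted p under 0.05. For Mki67, Cdk1, Cxcl14, Ndrg2, Elovl4 and Dsc1 limma's adjusted p of the interaction was between 0.755 and 0.757. The estimates were -0.585, -0.58, -0.728, 0.848, 0.65 and 0.527 in this order, each opposite in sign to the wild-type difference. The interaction is the bitransgenic layer difference minus the wild-type one, and these genes were picked from those called on the latter. Their opposite signs were largely set by that choice, which also bears on their unadjusted p-values, so neither shows a weaker layer difference in bitransgenic arrays. Limma's unadjusted p was 0.0016 for Cxcl14, 0.0267 for Ndrg2, 0.0323 for Elovl4 and between 0.0506 and 0.111 for the others. Only 2 codes paired bitransgenic arrays, so 0 calls do not show that the layer differences were equal. The design's own comparison of wild-type layers is also in the authors' deposited table, where the lowest q-value over the clusters was 0.0803. In the authors' deposited table Mki67 had a signed fold of 2.23 with a q-value of 0.11, and Krt79 a signed fold of -4.67 with a q-value of 0.112, negative where basal was lower.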

How the data were processed

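The authors deposited log2 signals of transcript clusters from Affymetrix MTA-1_0 arrays (mm10). Per the submitters' processing notes, RMA in Affymetrix Expression Console gave these values. RMA makes the distributions of all arrays alike, so a change common to most clusters would not be seen. Per the file headers, each comparison in the authors' deposited table has a q-value, a p-value and a signed fold (ratio). Of 72688 probe sets, 6732 controls and normalization sets were left out of the test. A cluster kept its symbol only where it lies on the RefSeq gene of that name (30817 clusters), and a gene with several clusters is read at the brightest. The number of arrays limits the precision.

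Differences came from 1 limma fit of the 12 arrays with the title code as a fixed block, layer and genotype by layer terms (3 residual degrees of freedom), with Benjamini-Hochberg adjustment over all clusters. Because it called 0 clusters, the genes described are those called when only clusters above background were tested, a choice made after seeing this. In the same-code check, deviations from group means correlated at 0.269, 0.533 and 0.37 in wild-type codes and at -0.425 to 0.061 between different codes, so the codes pair the arrays; this comes from the data, not the labels. Members and lists were chosen with earlier results of these data known.

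The rule for naming took up to 10 called genes each way that were above background on all 6 arrays with no overlap, up to 10 each way by bound, up to 4 called and 2 bright members of each of 23 lists, and fixed markers. Predicted, microRNA, olfactory and ribosomal models were not named; genes named beyond the rule are list members chosen after their values were seen, and some genes are not reported here. Of 522 genes in the lists, 501 were measured alone. Promoter windows came from RefSeq (GRCm38.p6). Alternatives were other blocks, samples, scalings, filters, moderation, the design's Student test and each code left out. The fit was tested on simulated data. R 4.3.3, limma 3.58.1, version 1.17.8 of data.table, Python 3.11.15, numpy 2.4.6, pandas 2.3.3 and matplotlib 3.10.9 were used.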

Additional observations from a re-analysis of the deposited data

How the results depend on the processing

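The count of called clusters depended on the fit more than the direction of single genes did. Over all clusters 0 were called with the code as a fixed block, against 957 with no replicate block (268 higher, 689 lower), 3600 with a random replicate block, 1312 in the 6 wild-type arrays alone with the paired block, 4 in these arrays without it, and 543 when only clusters above background were tested. Counted only among clusters above background, the calls were 2.61%, 8.29%, 6.73%, 0.0122% and 6.6% of the 8222 under the same settings in this order. Where the adjustment covered only clusters above background, the 543 became 252 with no block, 1800 with a random block, 1541 and 193 in the wild-type arrays alone with and without the block, 1442 with arrays centred, 1 with cyclic loess and 0 by the design's Student test (lowest adjusted p 0.158). Leaving out 1 code gave 0 to 0 calls, with 1312 to 2529 clusters at an unadjusted p under 0.05 in limma, against 2719 with all. The median of the intronic controls as mark gave 0 calls, their 99th percentile 19, and clusters above it in both layers 324. Of the 543, 204 were also called with no block and 534 with arrays centred. The last filters, the count for both layers and the settings repeated on the smaller set were added after seeing the data, and the cause of these changes was not tested, apart from the fewer arrays or clusters that some settings hold. Signs turned with arrays centred for Krt1 (0.033), Tfap2a (0.01), Dsp (0.037), Cdh1 (0.033) and Erbb2 (0.027), and with cyclic loess for Lrig1 (-0.053), Cd44 (-0.093) and Sdc1 (-0.062). Without 1 code the difference ranged from -0.16 to 0.08 for Krt1, -0.135 to 0.025 for Dsp, -0.06 to 0.265 for Lrig1 and -0.18 to 0.82 for Dcn. Centring also put the medians of the Notch (0.05), junction (0.04) and immune (0.003) lists above 0. Over members above background alone, list medians became 0.187 for follicle stem cell genes (-0.147 over all), 0.187 for Notch (-0.047), 0.245 for Wnt (0.04), 0.367 for nuclear envelope (0.183) and -1.423 for mesenchymal genes (-0.22). The interaction had 0 calls with and without the block. Of 132 genes set against every alternative, 115 chosen by rule and 17 later, the others kept their direction in all that were run, apart from Hmgcs1, whose difference was 0.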

Other observations

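The clusters called lower in basal arrays were more often short and without a gene name than those called higher. Of the 284 called lower, 181 (63.7%) had no gene name, against 60 of the 259 called higher (23.2%) and 26% of the 8222 clusters above background. Clusters of at most 200 bases made up 99 (34.9%) of those called lower, 9 (3.47%) of those called higher and 10.7% of those above background. The median difference of the short clusters called lower was -0.65, and by code it was -0.42, -0.74 and -0.84. The median over all short clusters above background was 0.06, or 0.15 with arrays centred and -0.08 with cyclic loess, so its sign depended on the scaling. The difference between these shares was not tested.

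Genes above background only in suprabasal arrays and outside the lists included Ccer2, with 7.59, 7.23 and 7.32 in basal arrays, against 9.81, 9.26 and 10.11 in suprabasal arrays, at least 2.40-fold lower in basal arrays (limma's adjusted p = 0.0403 over the clusters above background). Sulf2, an enzyme that edits heparan sulfate, had 7.42, 7.81 and 7.13 in basal arrays, against 9.08, 9.86 and 9.23 in suprabasal arrays, at least 1.90-fold lower in basal arrays (limma's adjusted p = 0.0454). Neither gene overlapped between the layers.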
